A study of Mesocricetus auratus with 6 samples.

Results

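Ribosomes are assembled in the nucleolus, where RNA polymerase I transcribes ribosomal RNA genes and a large set of factors cuts, modifies and folds the transcript into the small (40S) and large (60S) subunits. Small nucleolar RNPs direct the methylation and pseudouridylation of the RNA, the small subunit processome builds the 40S precursor, and GTPases, helicases and scaffold proteins mature the 60S particle. At an implantation site the uterus grows and its stroma turns into decidua, a tissue whose cells divide and enlarge.

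The nucleolar genes described here are a list of 44 genes of ribosome biogenesis, and their members are all probe sets on the array annotated with 1 of these symbols and no other gene. The rule found 51 probe sets for 35 of the 44 genes, out of 22215 probe sets and 11963 genes tested. Of the other genes, NOP56, DKC1, BOP1 and PPAN are annotated only on probe sets that also list other genes, and were not read, and NOP58, GNL3, NOB1, EBNA1BP2 and DDX18 had no probe set named in the annotation used here. A single probe set represented 25 members, and 10 members had several.

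RNA came from the uterus of untreated pregnant Syrian golden hamsters on day 5 of pregnancy. Pieces of uterus holding an implanting embryo (implantation sites, 3 arrays) were compared with pieces of uterus between embryos (interimplantation sites, 3 arrays). Strain, genotype and age are not given in the labels. The labels call the arrays of a group biological replicates, and the study's design text speaks of 3 animals, but no label ties an array to an animal, so p-values rest on the spread of these arrays, which may be technical. An implantation site also holds the embryo, and in whole tissue fewer cells of a type and less RNA per cell cannot be told apart.

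The array carries probes for human transcripts, so a hamster transcript is read only as far as its sequence matches, and a low value does not show that the transcript is missing or steady. Values are on the log2 scale, as the authors deposited them after RMA. The arrays were close in distribution but not identical, with medians of 4.18 to 4.20. Arrays correlated at 0.989 to 0.995 within groups and at 0.985 to 0.992 between groups. The median level of the 35 members was 5.09 against 4.59 for all genes, and 27 of them lay at or above that median. All 35 symbols have a hamster gene of the same name in RefSeq's annotation of the BCM_Maur_2.0 assembly.

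Levels of the 12 uterine stroma genes ran widely, from a mean over all arrays of 10.13 for COL1A1 and 9.25 for COL3A1, fibrillar collagen chains, to 3.28 for PGR, the progesterone receptor, and 2.05 for LUM, a proteoglycan. Among 10 trophoblast and embryo markers none passed the threshold of an adjusted p of 0.05 (1.24% of all genes did). Only KRT8 had an unadjusted p under 0.05, at −0.24, so that 1 of the 10 markers was lower (10%, against 5.22% of all genes). KRT8 is also on the list of uterine epithelium genes and is counted there too. The mean level of the 10 trophoblast and embryo markers was 4.49 to 4.52 at implantation and 4.52 to 4.57 at interimplantation sites.

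No nucleolar gene passed the test across all genes, and 22 of 35 genes were above 0, that is, higher at implantation sites. The median size of a difference, regardless of sign, was 0.13 on the log2 scale, against 0.07 over all genes. A gene with several probe sets was read at the brightest one, by the mean of all 6 arrays. Of 35 genes, 0 passed an adjusted p of 0.05 in limma's test in either direction, against 1.24% of all genes. At an unadjusted p under 0.05, 10 of 35 were higher (28.6%, against 5.68% of all genes) and 1 was lower (2.86%, against 5.22%). The arrays of both groups did not overlap in 12 genes that were higher (34.3%, against 8.36%) and in 1 that was lower (2.86%, against 8.09%). The 10 higher genes were FBL, WDR12, IMP4, NPM1, NOLC1, EMG1, NHP2, RRP9, PWP1 and BYSL, and the lower gene was DDX10. With the mean of the probe sets of a gene 8 were higher, and NOLC1 (0.12) and PWP1 (0.04) were not among them. Without interimplantation site 2 the count of genes higher at an unadjusted p under 0.05 was 6. Without probe sets whose identifiers mark them as open to cross-hybridisation it was 5 of the 20 genes still read. FBL, NPM1 and NHP2 were not among these 20. Shares of all genes under these other settings are not given, so these counts cannot be set against them.

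The median difference over the 35 genes, implantation minus interimplantation site, was 0.06 on the log2 scale, against −0.01 over all genes, and 22 of 35 were above 0 (62.9%, against 47.6%). Differences ran from −0.24 to 0.45, and 0 of 35 exceeded 0.5 in size. Differences of that size were rare over all genes too (138 of 11963). The median half-width of a gene's 95% confidence interval was 0.19, so most single differences of the size seen here could not be told from 0. All 11 genes with an unadjusted p under 0.05 lay at or above the median gene level, where the shares of all genes were 7.22% higher and 6.37% lower. Of the 27 members at that level 10 were higher (37.0%) and 1 was lower (3.70%). Over the 51 probe sets, 0 passed (1.06% of all probe sets did), while by unadjusted p 13 were above and 2 below the other group (25.5% and 3.92%, against 5.27% and 5.23%).

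Averaged over the 35 genes, the level was 5.14, 5.14 and 5.13 on the implantation arrays and 5.08, 5.04 and 5.05 on the interimplantation arrays. The groups did not overlap, but the closest arrays of both groups were about as far apart as the lowest and highest interimplantation arrays were.

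**Figure D1:**
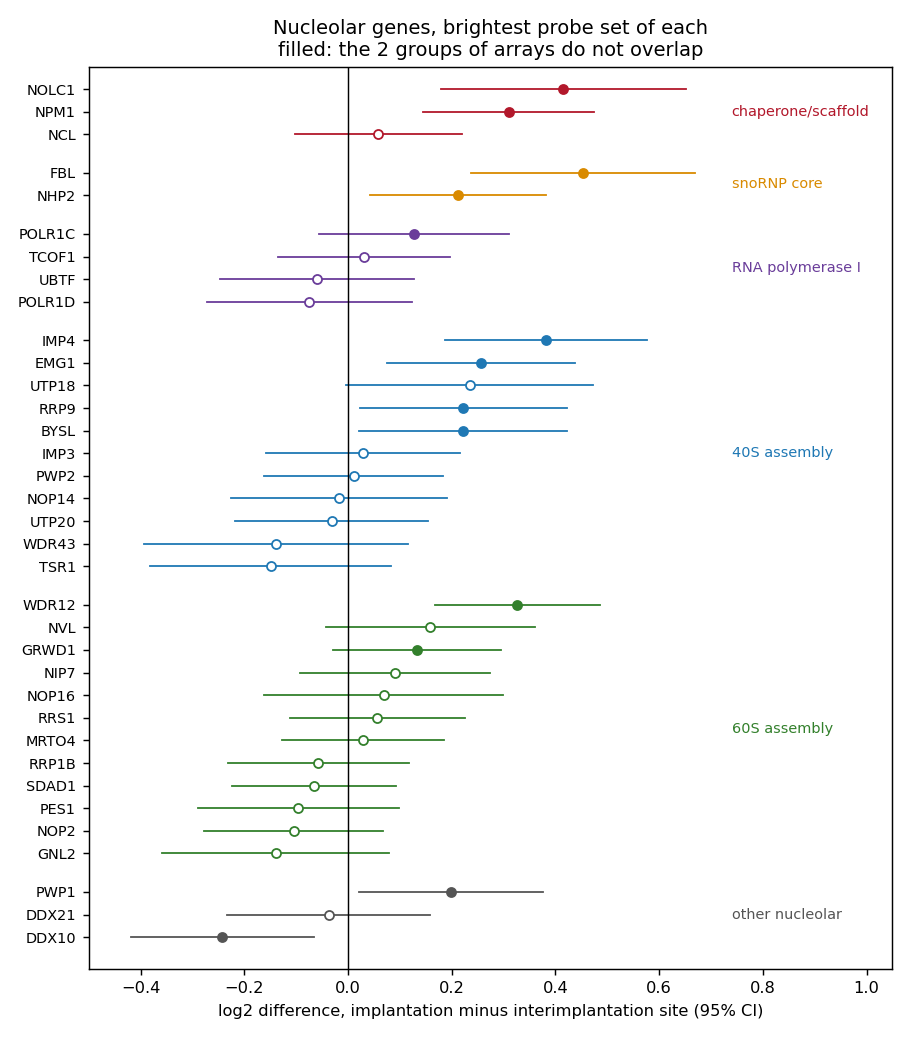
Log2 difference of each of the 35 nucleolar genes, implantation minus interimplantation site, at the brightest probe set, with 95% confidence intervals from limma and genes grouped by role. Filled points mark genes whose arrays do not overlap between groups. Intervals of 10 genes lie above 0 and that of DDX10 lies below it, while those of all 4 polymerase I genes span 0.

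Core proteins of the small nucleolar RNPs were higher at implantation sites in both members read, without passing the test. Of core proteins outside the members, NOP10 was above 0, and GAR1 and SNU13 were below 0. FBL encodes fibrillarin, the methyltransferase of box C/D RNPs, which methylate ribosomal RNA at the ribose. Its values (probe set 211623_s_at) were 6.51, 6.49 and 6.15 at implantation sites and 5.88, 5.94 and 5.96 at interimplantation sites. Implantation site 3 lay closer to the other group than to its own replicates, but the groups did not overlap. The difference of 0.45 ± 0.10 (SE), or 1.37-fold, was the largest of all members and missed the threshold narrowly (limma adjusted p = 0.0513). Without implantation site 3 it was 0.57 and passed (adjusted p = 0.0141).

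NHP2 encodes a core protein of the H/ACA RNPs, which convert uridine to pseudouridine and whose core telomerase shares. It (209104_s_at) read 5.998, 6.12 and 5.97 at implantation sites and 5.88, 5.77 and 5.79 at interimplantation sites, so that the lowest implantation array was just above the highest of the other group. The difference was 0.21 ± 0.08 (SE; adjusted p = 0.303).

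Other genes of these particles and of their assembly, 12 of 13 listed being measured, gave 1 gene past the threshold and higher, 0 lower (1.24% of all genes passed) and a median of 0.00. RUVBL2, an AAA+ ATPase that with RUVBL1 helps assemble box C/D RNPs and other complexes, rose. It read 6.62, 6.71 and 6.65 at implantation and 6.22, 6.27 and 6.20 at interimplantation sites, with a spread in each group far below the gap. The difference was 0.43 ± 0.07 (SE), or 1.35-fold (adjusted p = 0.0132), and the adjusted p was 0.0589, 0.0595 and 0.0638 without implantation site 2, implantation site 3 and interimplantation site 3. NOP10, the smallest core protein of H/ACA RNPs, was at 0.38 ± 0.09 (SE; adjusted p = 0.0593). GAR1, another H/ACA core protein, was at −0.15 on a dim probe set with a mean of 3.12, with all implantation arrays lower. SNU13, a box C/D core protein, was at −0.07, and its groups overlapped. RUVBL1 was at 0.24 (adjusted p = 0.320), and its groups overlapped.

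All 3 nucleolar chaperones and scaffolds read were above 0, and none passed the test. NPM1, or nucleophosmin, is an abundant histone and ribosome chaperone of the outer nucleolus, with a bright signal on this array. Its brightest probe set (200063_s_at) read 9.30, 9.38 and 9.30 at implantation sites and 8.94, 9.08 and 9.03 at interimplantation sites. The groups were clearly apart, and the difference was 0.31 ± 0.08 (SE), or 1.24-fold (adjusted p = 0.0812). After a further quantile normalization of the deposited values it was 0.21 (adjusted p = 0.261).

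The other probe sets of NPM1 gave 0.32 and 0.30, at mean levels of 8.56 and 5.98, and neither passed (adjusted p over probe sets 0.0729 and 0.130). All 3 probe sets were apart between groups. They read one gene and are not independent evidence, and the identifiers of all 3 mark them as open to cross-hybridisation.

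NOLC1 (Nopp140), a chaperone that binds both classes of small nucleolar RNP and polymerase I, read (205895_s_at) 5.97, 6.06 and 5.97 at implantation sites and 5.73, 5.72 and 5.31 at interimplantation sites. Interimplantation site 3 was the lowest by a wide margin, and the other 5 arrays were closer together. The difference was 0.42 ± 0.11 (SE), or 1.33-fold (adjusted p = 0.106), and 0.28 without that array. The other probe sets of NOLC1, which were of similar brightness, were at 0.03 and −0.08, so the difference was seen at 1 of its 3 probe sets.

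NCL, or nucleolin, an abundant RNA-binding protein of early ribosomal RNA processing, read 6.43, 6.34 and 6.41 against 6.37, 6.28 and 6.36. The groups overlapped, at a difference of 0.06 with a 95% confidence interval of −0.10 to 0.22.

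**Figure D2:**
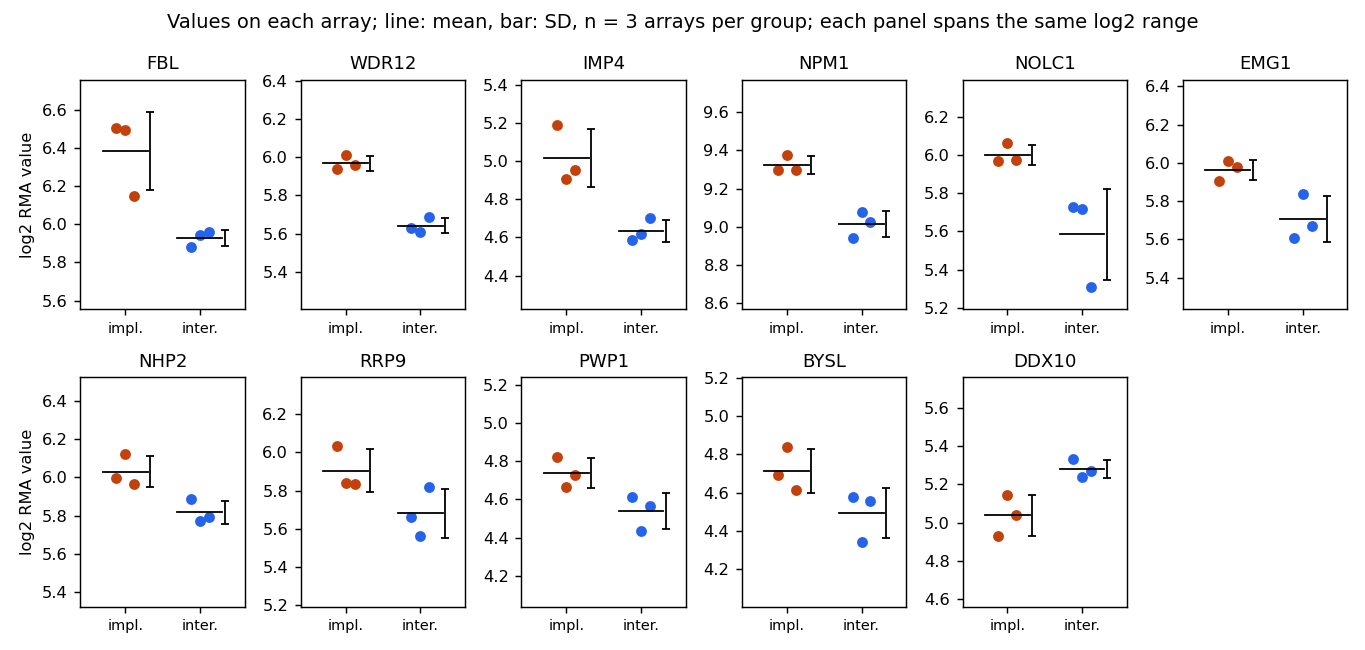
Log2 RMA values on each array of the 11 nucleolar genes with an unadjusted p under 0.05, at the brightest probe set. Points are arrays, horizontal lines group means and bars the SD (n = 3 per group, "impl." for implantation and "inter." for interimplantation sites). The groups do not overlap in any of the 11 panels, FBL has 1 low implantation array and NOLC1 has 1 low interimplantation array.

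Of the 4 genes of RNA polymerase I transcription read, 0 passed the test and 0 had an unadjusted p under 0.05. Their intervals cover the array signal, not the hamster transcript. POLR1C, a subunit shared by polymerases I and III, read 5.81, 5.76 and 5.82 at implantation and 5.52, 5.74 and 5.74 at interimplantation sites. The implantation arrays were all higher, by 0.01 at the closest, at a difference of 0.13 (95% confidence interval −0.06 to 0.31), and its other probe set was at 0.14. POLR1D, the partner of POLR1C in both polymerases, read 4.23, 4.14 and 4.07 against 4.19, 4.39 and 4.10. Its groups overlapped, at −0.08 (−0.27 to 0.12).

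TCOF1 encodes treacle, a nucleolar protein needed for ribosomal RNA transcription and mutated in Treacher Collins syndrome, as POLR1C and POLR1D can be. It read 5.19, 5.10 and 5.04 against 5.12, 5.07 and 5.03, with nearly the same range in both groups (0.03, interval −0.13 to 0.20). UBTF, the upstream binding factor that keeps ribosomal genes open, read 5.10, 5.03 and 5.02 against 5.27, 4.99 and 5.07 (−0.06, interval −0.25 to 0.13). Interimplantation site 1 was the highest UBTF array and the difference was 0.018 without it.

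Of 17 further genes of polymerase I transcription measured, POLR2E passed and rose (1.24% of all genes passed), 0 fell, and the median was −0.03. At an unadjusted p under 0.05, 3 were higher (17.6%, against 5.68% of all genes) and 2 lower (11.8%, against 5.22%). RRN3, the factor that brings polymerase I to the promoter, was one of the lower genes, at −0.22, read on a dim probe set with a mean of 2.23 (adjusted p = 0.280). POLR2E encodes a subunit common to polymerases I, II and III, so it is not specific to ribosomal genes. It read 5.38, 5.51 and 4.99 at implantation sites and 4.20, 4.59 and 4.43 at interimplantation sites, with no overlap. The difference was 0.88 ± 0.13 (SE), or 1.85-fold (adjusted p = 0.00633), with an adjusted p of 0.0191 and a difference of 0.46 for the mean of both its probe sets, since the other one was at 0.03 (limma adjusted p over probe sets 0.951). Identifiers of both POLR2E probe sets mark them as open to cross-hybridisation, and the gene was not read without such probe sets. POLR2H, another common subunit, was at 0.31 (adjusted p = 0.187).

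Among 11 genes grouped under the small subunit processome and 40S maturation, 4 were higher at an unadjusted p under 0.05 (36.4%, against 5.68% of all genes). In this group 0 were lower (against 5.22%), and the median was 0.03. DDX10, a helicase of 40S assembly grouped with the other nucleolar members, was lower at −0.24 and is not in this count. IMP4, which binds U3 RNA as part of a complex with IMP3 and MPHOSPH10, read (212411_at) 5.19, 4.91 and 4.95 at implantation sites and 4.58, 4.62 and 4.70 at interimplantation sites. Implantation site 1 was the highest array, and the groups did not overlap. The difference was 0.38 ± 0.09 (SE), or 1.30-fold (adjusted p = 0.0666).

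Of its partners, MPHOSPH10 was also at 0.38 ± 0.09 (SE; adjusted p = 0.0666) and its groups did not overlap. IMP3 was at 0.03, with a 95% confidence interval of −0.16 to 0.22, on a bright probe set with a mean of 6.74, and the difference between both partners was not tested. RRP9, a U3-specific protein of the same RNP, read (204133_at) 6.03, 5.84 and 5.84 against 5.66, 5.56 and 5.82. The lowest implantation array and the highest interimplantation array almost touched, at a difference of 0.22 ± 0.09 (SE; adjusted p = 0.381).

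EMG1, a methyltransferase that acts on a pseudouridine of the small subunit RNA, read (209233_at) 5.90, 6.01 and 5.98 at implantation sites and 5.61, 5.84 and 5.67 at interimplantation sites. These groups were apart, at 0.26 ± 0.08 (SE), or 1.20-fold (adjusted p = 0.227).

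BYSL, or bystin, is a factor of late 40S maturation that was first known in human cells as a partner of trophinin and tastin in adhesion between trophoblast and uterine epithelium. It read (203612_at) 4.69, 4.84 and 4.61 at implantation and 4.58, 4.34 and 4.56 at interimplantation sites. The groups were apart by a narrow margin, at 0.22 ± 0.09 (SE), or 1.17-fold (adjusted p = 0.382).

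None of the other 7 genes counted in this group had an unadjusted p under 0.05, and their differences ran from −0.15 to 0.23. UTP18, a protein of the processome, was at 0.23 on a dim probe set with a mean of 3.19 and at −0.08 on its other one. PWP2 (0.01), NOP14 (−0.02) and UTP20 (−0.03), large processome proteins, had groups that overlapped. WDR43, also of the processome, was at −0.14. TSR1, a factor related to GTPases that rides on the late 40S precursor, was at −0.15, 0.26 and 0.01 on its 3 probe sets, from bright to dim, so its probe sets disagreed in sign and no direction is given for it. Of 35 further genes of this stage measured, 0 passed in either direction, by unadjusted p under 0.05 there were 4 higher and 0 lower (11.4%, against 5.68% of all genes higher and 5.22% lower), and the median was 0.00. Besides MPHOSPH10, the lowest p was that of FCF1, a nuclease-like factor of the processome, at 0.33 ± 0.08 (SE; adjusted p = 0.0887).

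Of 12 genes of 60S assembly read, 1, WDR12, was higher at an unadjusted p under 0.05 (8.33%, against 5.68% of all genes), 0 were lower (against 5.22%), and the median was 0.04. WDR12 (218512_at) forms the PeBoW complex with PES1 and BOP1, which is needed for the processing of the large ribosomal RNA. It read 5.94, 6.01 and 5.96 at implantation sites and 5.63, 5.61 and 5.69 at interimplantation sites. Spread within each group was small, with an SD of 0.04 in both, against a difference of 0.33 ± 0.07 (SE), or 1.25-fold (adjusted p = 0.0538). PES1, its partner, was at −0.10 with a 95% confidence interval of −0.29 to 0.10, and its groups overlapped; the difference between both partners was not tested.

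GRWD1, a chaperone of a large subunit protein, was at 0.13 (−0.03 to 0.30), and its groups did not overlap. NVL, an AAA ATPase that releases factors from the 60S precursor, was at 0.16 (−0.04 to 0.36). NOP2, which methylates a cytosine of the large ribosomal RNA and is known as a proliferation antigen, was at −0.10 (−0.28 to 0.07). RRS1, which brings the 5S particle to the precursor, MRTO4, a stand-in for the stalk protein, RRP1B and SDAD1 were between −0.06 and 0.06. GNL2, a GTPase (−0.14), and NIP7 (0.09) were read on dim probe sets with means of 2.40 and 2.16.

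NOP16, a nucleolar protein of 60S assembly, was read by 4 probe sets that differed in sign. The brightest was at 0.07, and the second was lower at implantation sites. That second probe set read 4.34, 4.34 and 4.37 against 4.69, 4.46 and 4.68. Its groups did not overlap, at −0.26 ± 0.08 (SE; adjusted p over probe sets 0.240). The others were at −0.03 and −0.09. Of 38 further 60S genes measured 0 passed, by unadjusted p under 0.05 there were 5 higher and 0 lower (13.2%, against 5.68% of all genes higher and 5.22% lower), and the median was 0.03. The lowest p was that of EIF6, which keeps the 60S subunit from joining the 40S, at 0.38 ± 0.08 (SE; adjusted p = 0.0551). EFL1, the GTPase that helps to remove EIF6, was next at 0.27 ± 0.09 (SE; adjusted p = 0.279).

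**Figure D3:**
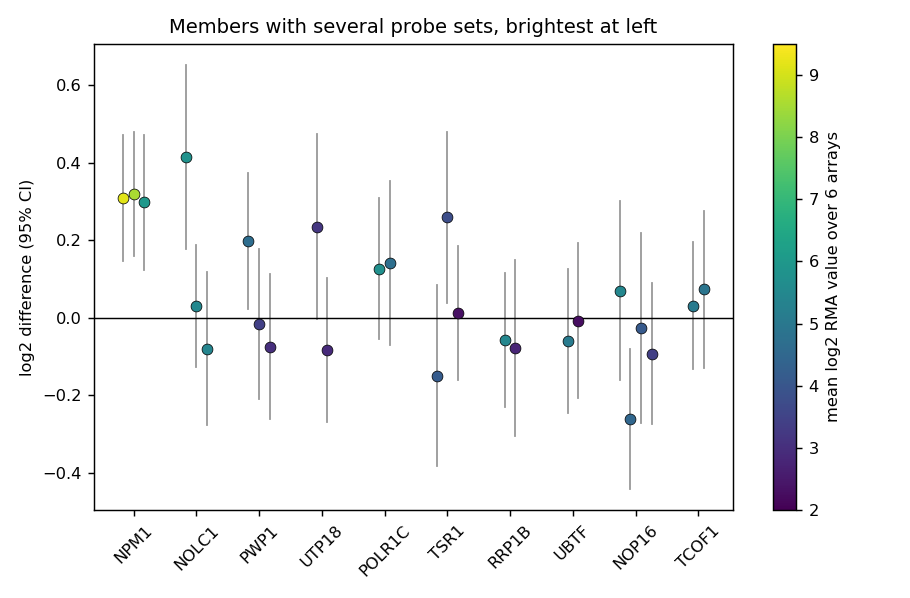
Log2 difference with 95% confidence interval at each probe set of the 10 nucleolar genes that have several, brightest at left within a gene, coloured by mean log2 RMA value over the 6 arrays. The 3 probe sets of NPM1 lie together at 0.30 to 0.32, while those of NOLC1, PWP1, UTP18, TSR1 and NOP16 fall on both sides of 0.

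Of 3 other nucleolar members, DDX10, an RNA helicase of 40S assembly, was the one gene lower at an unadjusted p under 0.05. It read (204977_at) 4.93, 5.14 and 5.04 at implantation sites and 5.33, 5.24 and 5.27 at interimplantation sites. The groups did not overlap, at −0.24 ± 0.08 (SE; adjusted p = 0.245). DDX21, a helicase of polymerase I transcription and of small nucleolar RNA release, was at −0.04 (−0.23 to 0.16).

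PWP1, a chromatin-bound protein that promotes transcription of ribosomal genes, read (201608_s_at) 4.82, 4.66 and 4.73 at implantation and 4.61, 4.44 and 4.57 at interimplantation sites. The groups were apart by 0.05, at a difference of 0.20 ± 0.08 (SE; adjusted p = 0.381). Its dimmer probe sets were at −0.02 and −0.07.

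Across the 5 lists of other ribosome assembly genes 122 genes were measured, of which 2 rose (RUVBL2 and POLR2E) and 0 fell, with 4 rises without interimplantation site 1. At an unadjusted p under 0.05, 17 were higher and 3 lower, or 13.9% and 2.46%, against 5.68% and 5.22% of all genes, and the median was 0.02. The list of the RNA exosome and of nucleases of ribosomal RNA had 0 of 20 past the threshold, with POP1 (0.25, adjusted p = 0.250) and POP4 (0.27, adjusted p = 0.268), protein subunits of RNases P and MRP, at its lowest p. By unadjusted p under 0.05, 2 of these 20 were higher (10%, against 5.68% of all genes) and 1 lower (5%, against 5.22%).

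MYC, a transcription factor known to activate genes of ribosome biogenesis, was at 0.14 ± 0.08 (SE; adjusted p = 0.564), with groups apart at a low level of 3.63 ± 0.07 against 3.49 ± 0.06 (SD, n = 3). Its antagonists MXI1 and MNT were at −0.38 (adjusted p = 0.0556) and −0.17 (adjusted p = 0.479). MAX was at −0.12 on its brightest probe set and between −0.27 and 0.06 on the others. MYCN was at −0.03 on its brightest probe set and at −0.18 and 0.19 on the others. The probe sets of both genes thus disagreed in sign. Of 6 such regulators measured 0 passed, and 2 were above 0. At an unadjusted p under 0.05, 0 were higher (against 5.68% of all genes) and 1, MXI1, was lower (16.7%, against 5.22%).

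**Figure D4:**
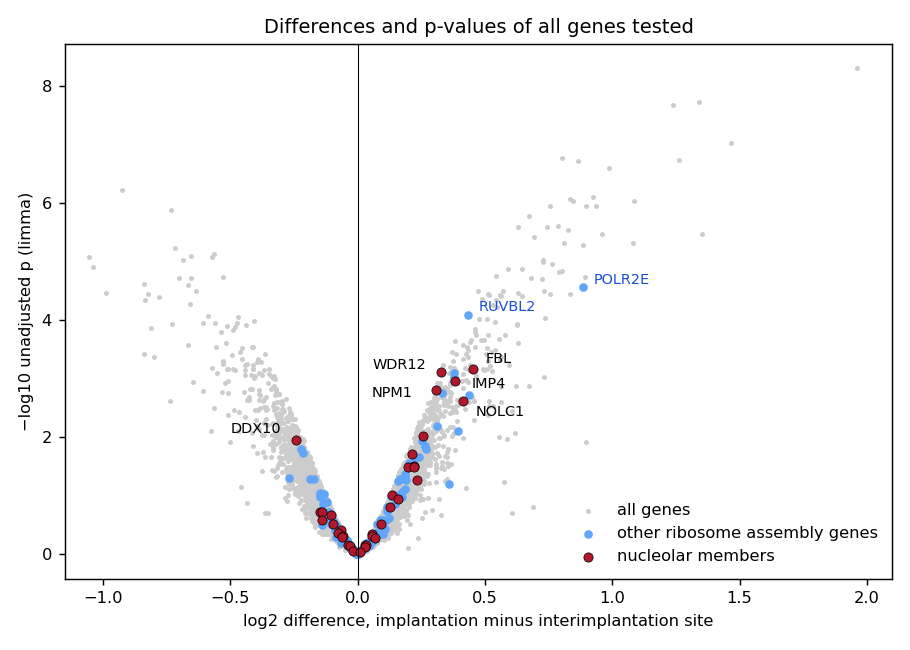
Log2 difference and −log10 of the unadjusted limma p of all 11963 genes (grey), the 122 other ribosome assembly genes (blue) and the 35 nucleolar members (red). The members stay between −0.24 and 0.45, and FBL, WDR12, IMP4, NPM1 and NOLC1 have the lowest p among them.

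Markers of other cell types and states also differed between these arrays, where 1.24% of all genes passed the threshold, and by unadjusted p under 0.05 the shares were 5.68% higher and 5.22% lower. Of 20 proliferation genes 2 rose (CCNA2 and PCNA), 0 fell and by unadjusted p 10 were higher and 0 lower, and their mean level was 4.70 to 4.76 at implantation and 4.53 to 4.56 at interimplantation sites. Of 10 smooth muscle genes 0 rose, 3 fell and 4 were lower at an unadjusted p under 0.05. Their mean level was 5.17 to 5.20 against 5.32 to 5.44. Of 12 uterine epithelium genes 0 passed and 3 were lower at an unadjusted p under 0.05, at 4.35 to 4.46 against 4.49 to 4.52. Of 12 stroma genes COL1A1 rose (0.56) and PDGFRA, a growth factor receptor, fell (−0.66), while by unadjusted p 3 were above and 2 below the other group, at 6.15 to 6.20 against 6.09 to 6.26. Of 9 endothelial and 11 leukocyte genes 0 had an unadjusted p under 0.05. Their mean levels were 4.24 to 4.27 against 4.32 to 4.37 and 4.37 to 4.41 against 4.34 to 4.37. Actin signal from the 3′ end minus the 5′ end of the transcript, a measure of RNA quality, was −2.08 ± 0.22 at implantation and −1.70 ± 0.15 at interimplantation sites (log2, SD, n = 3; exact two-sided permutation p = 0.1, the smallest 3 against 3 arrays allow). On this array the actin value also depends on how well the human probes match the hamster transcript at each end, which was not measured. It is therefore no plain measure of RNA quality here. The part of the marker and actin differences in the values of the nucleolar genes was not tested.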

How the data were processed

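The deposited log2 values were produced by the authors with Partek 6.6 and RMA, per the submitters' processing notes, at settings these sources do not give; the base of the log was read from the range of the values. The table held 22283 probe sets, of which 68 controls were left out. Platform annotation gave 1 gene to 19065 probe sets, several to 1043 and none to 2107. The test was limma's moderated test (limma 3.58.1, R 4.3.3; lmFit, then eBayes; two-sided, no covariate) over 22215 probe sets and, with the brightest probe set of each gene, over 11963 genes. Benjamini-Hochberg adjustment covered the whole table, with a threshold of 0.05. Adjusted p-values are those of limma over genes unless probe sets are named. SE and 95% confidence intervals come from the same fit.

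The members and all lists were chosen with earlier results of these data known, and counts of list members are descriptions. Full values are given for members past the threshold, up to 10 per direction by smallest p with an unadjusted p under 0.05, and 4 polymerase I genes; NCL, the other probe sets and other genes with their values were named after these were seen. From the other lists, genes past the threshold and the 2 with the smallest p were named, and some others after their values were seen. The fit was tested on simulated data. Alternatives were other normalizations, brightness filters, probe set rules, replicate blocks, array weights and leaving out each array. No scan dates were used, so no batch was tested. The number of arrays limits the precision.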

Additional observations from a re-analysis of the deposited data

How the results depend on the processing

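The count of member genes past the threshold and higher was 2 after a further quantile normalization (FBL and WDR12), with the filter at median brightness and with a random replicate block, and 1 with the first-quartile filter, averaged probe sets, a trended robust eBayes or array weights. For member probe sets it was 2 with the filter at median brightness, with a random replicate block and with array weights, and 1 with the trended eBayes. Counts stayed at 0 after median centring, after cyclic loess, when cross-hybridising probe sets were left out and with the replicate number as a fixed replicate block (FBL adjusted p = 0.0594). Among the 15 members given with full values, only FBL and WDR12 passed under any alternative that could read them. FBL, NPM1, NHP2, TCOF1 and UBTF were not read without cross-hybridising probe sets, nor POLR1D with the filter at median brightness.

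At an unadjusted p under 0.05, 5 member genes and 5 probe sets were higher without cross-hybridising probe sets, which left 20 genes and 21 probe sets, and 1 probe set was lower. With the most variable probe set of a gene 2 genes were lower. Leaving out single arrays gave 0 to 1 gene and 0 to 1 probe set past the threshold and higher, 6 to 11 genes higher and 1 to 2 lower at an unadjusted p under 0.05, and 8 to 14 probe sets higher. Pathway genes outside the members gave 1 to 4 past the threshold and higher, and 1 to 5 lower at an unadjusted p under 0.05. Shares of all genes under these settings are not given, so none of these counts can be set against them. PWP1 was at −0.075 without cross-hybridising probe sets, where another probe set is read. With single arrays left out TCOF1 ran from −0.0074 to 0.066, UBTF from −0.12 to 0.018 and POLR1D from −0.14 to 0.0073.

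Arrays of the same number deviated together weakly at most (correlations of deviations from the group means 0.054, −0.0025 and 0.070). Of 3 implantation arrays, 2 correlated best with their own number. With 3 arrays per group these values cannot settle whether the arrays were paired. No sequence match between probes and hamster transcripts was measured, so dim members are the least certain.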
